A study of Mus musculus with 2 samples.

Results

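Of the 5650 differentially accessible regions (DARs) in bone marrow-derived monocytes (BMDMs) after inhibition of BRD9, 428 lay between genes but within 10 kb of a transcription start site (TSS). They were taken as the DARs that the authors' annotation calls distal intergenic, with a distance of at most 10000 bp to the TSS of the listed nearest transcript and without the regions 1 to 3000 bp downstream of it. They made up 7.58% of all DARs. By the same rule, 270 lay upstream of the listed TSS and 158 downstream, past the end of the transcript. Accessibility went up (gain) after inhibition in 240 of them and down (loss) in 188. The gain share was 56.1% (95% Wilson interval 51.3 to 60.7), beside 55.9% gain and 44.1% loss among all DARs, so that the share of the intergenic regions near a TSS was that of the whole series.

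The cells were BMDMs of C57BL/6 mice, taken from long bones of the hind leg, and the assay was ATAC-seq, in which a transposase cuts and tags open chromatin. Both groups received M-CSF (50 ng/ml) together with RANKL (100 ng/ml), which drive osteoclast formation, and either vector (MR + vector) or the BRD9 bromodomain inhibitor iBRD9 (MR + iBRD9) for 24 h. Each group was 1 library of 5000 cells, so that there is no replicate and no test, and a change caused by the inhibitor and a difference between the libraries cannot be told apart. The tables give for each DAR its position, direction and nearest transcript, and no count, signal or fold change. Therefore all intervals below cover counting error over regions only, regions are not replicates of a condition, and the depth behind a DAR is unknown. Markers of monocytes, macrophages and other marrow cells could be looked up only as nearest genes. Of 97 monocyte and macrophage markers and 88 markers of other bone marrow cell types, 0 were nearest to one of the 428 regions. At the 0.759% of all protein-coding genes that were, less than 1 gene would fall in each list, so that nothing is read from this about the cells. Among all DARs, 12 of the 97 (12.4%) and 7 of the 88 markers (7.95%) were nearest genes, beside 11% of all protein-coding genes. The levels of the markers are not given.

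BRD9 is the bromodomain subunit that defines the non-canonical BAF complex, a remodeller that moves nucleosomes on DNA with the use of ATP. Intergenic open chromatin near genes often holds enhancers, which in macrophages and osteoclasts are typically bound by PU.1 together with AP-1, C/EBP, RUNX, NF-kB and interferon-activated factors. In osteoclast formation RANKL acts through NF-kB, AP-1 and NFATC1, whereas interferon signalling restrains it.

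Sequences of 9 of these regions are shown. The regions lie next to genes of the lists used below and hold a motif match, hold 4 different motifs (Mefv), or form a pair of opposite direction (Mir34a). List regions without a match are not shown, nor are all with one, so the shown ones do not say how common matches are. The sequences are those of the plus strand of GRCm39, in lower case, with matches to the searched motifs on either strand in capitals. Of the Bicra region, the 300 bp at its middle are shown. The capitals mark PU.1 (GAGGAAGT), a gamma-activated site (TTCNNNGAA) and an interferon response element (GAAANNGAA) in Socs3, PU.1 and NFAT (TGGAAA) in Sirpa, C/EBP (TTGCNNAA) and AP-1 (TGANTCA) in Cxcl1, GC box (GGGCGG) and forkhead (TAAACA, here also with a leading G) in Bicra, C/EBP in Mcl1, and a gamma-activated site and an interferon response element in Dusp16. In Mefv they mark AP-1 at 2 positions, RUNX (TGTGGT) and NF-kB (GGGANTTNC) beside them, and the Mir34a loss region holds RUNX and AP-1, whereas the Mir34a gain region holds none. Where matches overlap or abut, as NF-kB and NFAT in Mefv, they form 1 run of capitals.
Socs3 gain, chr11:117850903-117851052: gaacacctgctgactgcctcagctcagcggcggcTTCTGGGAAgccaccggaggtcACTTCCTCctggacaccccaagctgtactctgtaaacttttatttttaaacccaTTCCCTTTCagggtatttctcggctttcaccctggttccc
Sirpa gain, chr2:129428125-129428315: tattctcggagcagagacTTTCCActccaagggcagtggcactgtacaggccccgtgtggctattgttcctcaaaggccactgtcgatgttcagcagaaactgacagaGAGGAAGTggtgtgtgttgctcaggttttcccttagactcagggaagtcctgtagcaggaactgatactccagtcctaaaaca
Cxcl1 gain, chr5:91029563-91029830: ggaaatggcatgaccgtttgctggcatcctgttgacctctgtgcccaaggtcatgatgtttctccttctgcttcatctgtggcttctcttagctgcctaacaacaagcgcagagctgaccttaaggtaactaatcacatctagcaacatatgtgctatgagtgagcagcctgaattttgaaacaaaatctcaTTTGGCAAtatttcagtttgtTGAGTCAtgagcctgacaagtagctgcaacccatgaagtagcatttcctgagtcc
Bicra gain, chr7:15786684-15786983: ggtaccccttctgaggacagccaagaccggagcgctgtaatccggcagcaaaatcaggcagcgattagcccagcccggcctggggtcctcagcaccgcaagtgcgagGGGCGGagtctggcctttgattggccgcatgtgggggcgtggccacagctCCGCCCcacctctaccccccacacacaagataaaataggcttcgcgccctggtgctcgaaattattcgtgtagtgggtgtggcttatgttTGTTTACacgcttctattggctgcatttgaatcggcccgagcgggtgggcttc
Mcl1 loss, chr3:95561092-95561257: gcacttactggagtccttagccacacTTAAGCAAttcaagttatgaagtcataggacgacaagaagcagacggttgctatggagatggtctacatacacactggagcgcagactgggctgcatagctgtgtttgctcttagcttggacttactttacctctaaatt
Dusp16 loss, chr6:134773384-134773619: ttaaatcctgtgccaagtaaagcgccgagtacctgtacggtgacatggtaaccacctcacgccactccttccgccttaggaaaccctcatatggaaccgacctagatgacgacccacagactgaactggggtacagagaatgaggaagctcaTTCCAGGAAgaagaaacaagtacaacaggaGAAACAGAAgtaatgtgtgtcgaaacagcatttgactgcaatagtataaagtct
Mefv gain, chr16:3541160-3541448: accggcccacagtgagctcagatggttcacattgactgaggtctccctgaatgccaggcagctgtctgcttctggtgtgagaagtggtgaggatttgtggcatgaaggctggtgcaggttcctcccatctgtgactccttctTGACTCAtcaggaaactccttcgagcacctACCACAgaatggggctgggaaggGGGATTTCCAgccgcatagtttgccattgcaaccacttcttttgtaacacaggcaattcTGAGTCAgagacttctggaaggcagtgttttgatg
Mir34a loss, chr4:150144463-150144612: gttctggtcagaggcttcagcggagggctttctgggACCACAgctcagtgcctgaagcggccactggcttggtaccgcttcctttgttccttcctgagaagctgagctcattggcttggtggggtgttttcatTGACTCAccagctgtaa
Mir34a gain, chr4:150144984-150145133: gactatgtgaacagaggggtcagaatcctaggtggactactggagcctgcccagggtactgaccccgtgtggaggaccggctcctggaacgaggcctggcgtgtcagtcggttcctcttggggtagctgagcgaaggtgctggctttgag
mmu-miR-34a-5p, mature sequence: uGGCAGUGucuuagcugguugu

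The last line is the mature microRNA of Mir34a from RefSeq (table of build GRCm38.p6), shown because both DARs of the pair lie upstream of its gene, with the seed, bases 2 to 8, in capitals. Mir34a encodes a microRNA that is known as a target of p53. Of the other list genes, the regions at Ifngr1, Hes1 and Etv3 held no match to any of the 17 motifs. A match is a description of letters and not of binding.

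Upstream of the TSS, 145 regions were gain and 125 loss, a gain share of 53.7% (47.7 to 59.6). Downstream, 95 were gain and 63 loss, a gain share of 60.1% (52.3 to 67.4). These intervals overlap each other, and both hold the share of all DARs. Read the other way, 60.4% of the gain regions (54.1 to 66.4) and 66.5% of the loss regions (59.5 to 72.8) lay upstream.

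Distance within the 10 kb gave no ordered change of direction. Upstream, the gain share by kb went from 45.8% (11 of 24, 7 to 8 kb) to 60.0% (18 of 30, 6 to 7 kb), and downstream from 52.4% (11 of 21, 4 to 5 kb) to 69.6% (16 of 23, 8 to 9 kb), with intervals that all overlap. The upstream gain regions lay at a median of 5774 bp and the loss regions at 6288 bp, within a range of 3062 to 9947 bp. Downstream the medians were 6919 bp for gain and 6332 bp for loss, within 3090 to 9944 bp. At the lower limit upstream, the nearest members were a loss region at Mbp, the gene of myelin basic protein (3062 bp), and gain regions at Gm18252 (3072 bp) and the immunoglobulin segment Ighv9-3 (3147 bp). At the upper limit, Zfp985 (9947 bp, gain), Gm47082 (9921 bp, loss) and Cartpt (9909 bp, gain) fell just inside. By GENCODE M39, the annotation used below, the Cartpt region lay only 502 bp upstream of a protein-coding start of the same gene. Just outside the limit fell Cfap418 (10034 bp), Pde5a (10060 bp) and Gm55835 (10068 bp), all gain. Downstream, Gm12026 (3090 bp, gain), Gm2840 (3180 bp, loss) and Gm25081 (3216 bp, loss) were inside at the lower limit, whereas Or6o1-ps1 (3000 bp, loss), Gm28893 (2827 bp, gain) and Gm36330 (2787 bp, gain) were outside. At its upper limit, Gm11443 (9944 bp, loss), Mif-ps1 (9932 bp, gain) and 4930421C12Rik (9700 bp, gain) were inside, and Gm37786 (10002 bp, loss), Gm6555 (10065 bp, gain) and Gtf2ird1 (10225 bp, gain) outside.

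**Figure D1:**
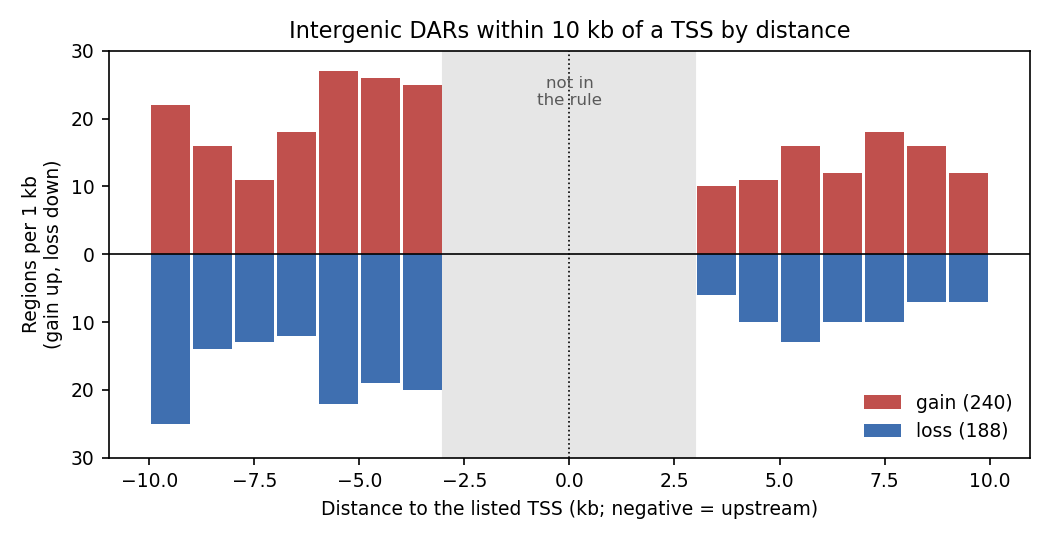
Number of intergenic DARs per 1 kb of distance to the listed TSS, upstream at negative and downstream at positive distances in kb, with gain counted upward (240) and loss downward (188). The grey band marks distances up to 3 kb to each side. Downstream the rule leaves these out, and upstream no region of the annotated class lay nearer than 3062 bp. Gain and loss are both spread over all distances from 3 to 10 kb.

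Farther from genes, intergenic DARs at 10 to 50 kb had a gain share of 57.5% (54.6 to 60.4, n = 1076), and those beyond 50 kb one of 52.6% (49.0 to 56.1, n = 751). Both intervals overlap that of the regions within 10 kb. None of the 428 regions lay on chromosome X or Y or on an unplaced sequence. By chromosome, the gain share had its lowest value on chromosome 8 (6 of 18, 33.3%, 16.3 to 56.3). Its highest values were on chromosome 10 (12 of 16, 75%, 50.5 to 89.8) and chromosome 5 (16 of 22, 72.7%, 51.8 to 86.8). The interval of each chromosome held the 55.9% of all DARs. Chromosome 2 held the largest number of regions (45, of which 26 gain).

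**Figure D2:**
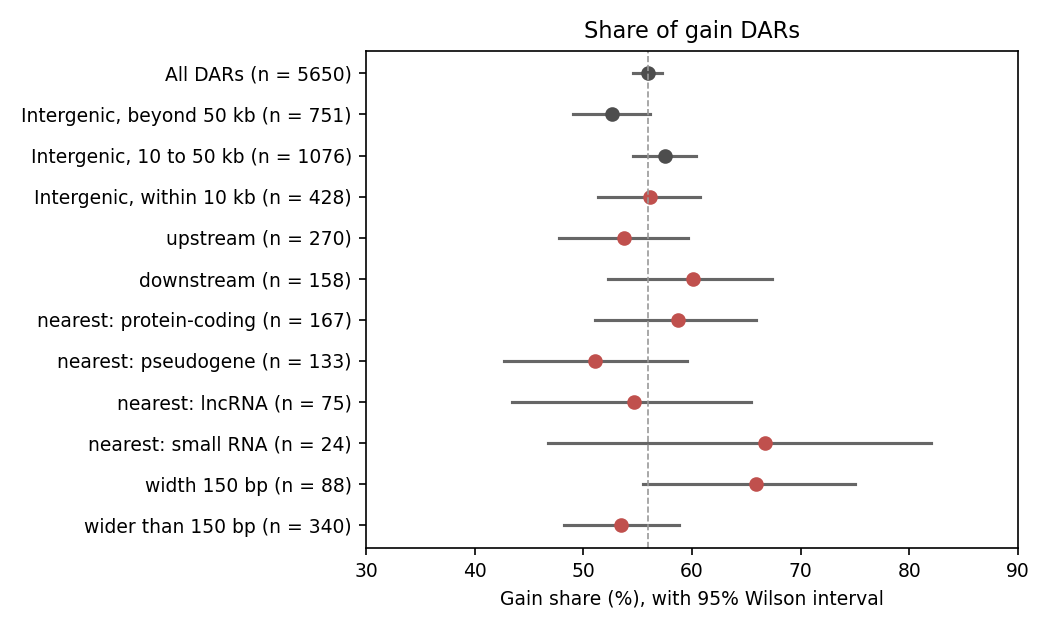
Share of gain DARs in %, with points for the shares and lines for 95% Wilson intervals, in all DARs and 2 classes farther from genes (grey points) and in the intergenic DARs within 10 kb and their subsets (red points). The dashed line is the share of all DARs, 55.9%, and lies inside each interval plotted, close to the lower end for regions of 150 bp (55.5 to 75).

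The genes next to these regions were protein-coding less often than for all DARs, and more often than for intergenic DARs farther away. By the gene types of GENCODE M39, the nearest gene was protein-coding for 167 of the 428 regions (39%, 34.5 to 43.7), a pseudogene for 133 (31.1%, 26.9 to 35.6), a long non-coding RNA (lncRNA) for 75 (17.5%) and a small RNA for 24 (5.61%). A further 18 had a gene model still awaiting experimental proof (TEC), 2 another type, and 9 a gene that M39 does not list. Among all DARs, protein-coding genes took 48.8% and pseudogenes 19.6%, among intergenic DARs at 10 to 50 kb 27% and 33.1%, and beyond 50 kb 17.2% and 38.6%. Downstream regions lay next to pseudogenes in 39.2% (32.0 to 47.0) and to protein-coding genes in 31.6% (24.9 to 39.3), whereas upstream regions did so in 26.3% (21.4 to 31.9) and 43.3% (37.6 to 49.3). By construction, a downstream region has to lie past the end of its transcript within 10 kb of the start, and the listed transcripts had a median length of 993 bp downstream and 5704 bp upstream. The downstream regions lay a median of 5171.5 bp (158 to 9593 bp) past the transcript end.

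**Figure D3:**
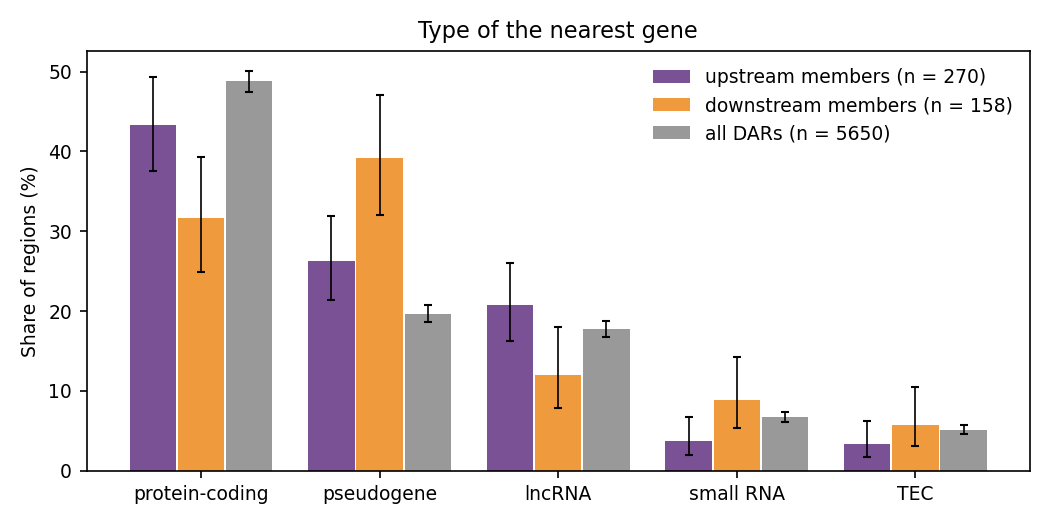
Share in % of upstream regions (purple), downstream regions (orange) and all DARs (grey) whose nearest gene is of each type in GENCODE M39, with 95% Wilson intervals as error bars. Pseudogenes take 39.2% of the downstream and 26.3% of the upstream regions, and TEC stands for gene models still awaiting experimental proof.

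Beside protein-coding genes, the gain share was 59.0% upstream (69 of 117, 49.9 to 67.5) and 58.0% downstream (29 of 50, 44.2 to 70.6). Beside pseudogenes it was 43.7% upstream (31 of 71, 32.7 to 55.2) and 59.7% downstream (37 of 62, 47.3 to 71.0). These intervals overlap each other, and the upstream one lies below the 55.9% of all DARs. Next to lncRNA genes 41 of 75 regions were gain and next to small RNAs 16 of 24. Of the protein-coding genes in M39, 165 of 21751 (0.759%) were nearest to one of these regions.

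In M39, which is not the annotation of the deposited tables, 293 of the 428 regions (68.5%, 63.9 to 72.7) overlapped no gene. The other 135 overlapped a gene, 121 of them lncRNA genes only, and 14 overlapped a protein-coding gene. The gain regions among these 14 included Slfn10, of the interferon-induced Schlafen family, Epsti1, an interferon-induced gene, Kat14, a histone acetyltransferase subunit, Gcn1, Ahcyl1 and Zfp988. The loss regions included Dusp16, a phosphatase of JNK and p38, Eps8, Bin1, Mtus1 and Anapc13, and the region listed at Fam229b, which lay in Lama4. The start of a protein-coding transcript of M39 was within 10 kb of 165 regions (38.6%, 34.1 to 43.2), 97 gain and 68 loss, and farther than 50 kb from 153 (35.7%, 31.4 to 40.4). Thus a region within 10 kb of a listed gene was in most cases not within 10 kb of a protein-coding start. Of all DARs, 28.8% were within 10 kb of such a start and 44.2% farther than 50 kb.

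Of the 1143 genes in 13 lists on osteoclast, myeloid, interferon and chromatin biology, 12 (1.05%) were nearest to one of these regions, beside 0.759% of all protein-coding genes. Of these, 9 had a gain and 3 a loss region. With so few genes, nothing is read from the split of directions in a list. The lists of osteoclast bone resorption and lysosome (54 genes), phospholipid and glycerolipid synthesis (73 genes) and cell cycle (85 genes) had 0 genes here, and at the share of all protein-coding genes less than 1 gene would fall in each.

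In cytokine and interferon signalling, Socs3, the suppressor of cytokine signalling that JAK-STAT activity induces, had a gain region of 150 bp that lay 8960 bp downstream of its TSS (chr11:117850903-117851052). Ifngr1, which encodes the ligand-binding chain of the interferon-gamma receptor, had a gain region at chr10:19488886-19489102. It lay 7219 bp downstream of the start of the listed transcript, which is 3338 bp long. The nearest protein-coding start in M39 was that of Il22ra2, at 8639 bp. Cxcl1, a chemokine that attracts neutrophils, had a gain region of 268 bp at 9270 bp upstream (chr5:91029563-91029830). The regions of Socs3 and Cxcl1 overlapped lncRNA genes of M39 (Gm73339 and Gm73427). Over all DARs, 10 of the 106 genes of the interferon list (9.43%) were nearest genes, 6 with a gain and 4 with a loss DAR. In the cytokine list there were 25 of 141 (17.7%), 15 with a gain and 10 with a loss DAR. Of all protein-coding genes, 11% were nearest to a DAR, 1457 with gain and 1113 with loss, and nothing is read from the splits in the lists.

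Among osteoclast and receptor genes, Sirpa, the receptor for CD47 that takes part in the fusion of macrophages, had a gain region 6440 bp upstream (chr2:129428125-129428315), with a PU.1 and a NFAT match. Adrb1, the beta-1 adrenergic receptor, had a gain region 9197 bp upstream (chr19:56701262-56701434) and a further gain DAR at 24548 bp upstream, outside the limit. Bicra encodes GLTSCR1, which like BRD9 is a subunit specific to the non-canonical BAF complex. Its gain region lay 4797 bp upstream (chr7:15786643-15787024), was 382 bp wide and had a GC content of 60.7%.

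Of the transcription factors and early response genes, Egr1 had a gain region 5149 bp upstream (chr18:34987578-34987727), Hes1, a repressor that Notch induces, one at 9803 bp upstream (chr16:29873230-29873399), and Ier2, an immediate early gene, one at 5644 bp downstream (chr8:85383675-85383839). Etv3, an ETS repressor in macrophages, had a loss region 3950 bp upstream (chr3:87428615-87428764) and a gain DAR at 12616 bp, so that both directions occurred at this gene. The other losses were at Mcl1, which encodes an anti-apoptotic BCL2 family protein (4842 bp upstream, chr3:95561092-95561257, within the lncRNA genes Gm64625 and Gm65002), and at Dusp16 (3796 bp upstream, chr6:134773384-134773619).

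Other genes were singled out after their values were seen, from both directions and with no count behind them. The Notch ligand Dll4 (7548 bp downstream) and the glycosyltransferase Lfng (5063 bp downstream) had gain regions, and the ubiquitin ligase Mib1 had a loss region (6776 bp upstream). Further gain regions lay upstream of Mefv, which encodes pyrin (5199 bp), Mmp12, the macrophage elastase (7385 bp), Nfam1, an activating receptor (4794 bp), Epsti1 (6698 bp) and Slfn10 (5633 bp). The transcriptional coactivator Ncoa6 had a loss region with an AP-1 match (5031 bp upstream).

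The 428 regions were listed at 421 genes, of which 7 had 2 regions, and 6 of these 7 had a gain and a loss region. At Mir34a, the loss region lay 8299 bp and the gain region 7778 bp upstream, with 371 bp between them, both in the lncRNA gene Gm13067. At the pseudogene Gm8938, a gain region of 293 bp and a loss region of 150 bp were 233 bp apart, at 4926 and 5452 bp downstream. The other genes of this kind were Gm11781 (930 bp between loss and gain), Zfp988 (1684 bp), Mbp (2217 bp) and an unnamed gene on chromosome 13 (2042 bp). At Mkrn1-ps1, both were gain, 7107 bp downstream and 8844 bp upstream.

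Close pairs with at least 1 of these regions were thus mostly of opposite direction, over few pairs. In the 11 pairs of nearest neighbours at most 5 kb apart that held at least 1 of these regions, 9 were of opposite and 2 of the same direction, beside 55 opposite and 30 same among the 85 such pairs of all DARs, which include these 11. Of the 11 pairs, those of the same direction were Gm25081 with Gm13588 (both loss, 2179 bp) and Gm13245 with Zfp981 (both gain, 4893 bp). Mmp12 had, besides the gain region, a loss DAR 4598 bp away at 12140 bp upstream, and the loss region at Sun1, a nuclear envelope gene, was 3254 bp from a gain DAR at the Sun1 promoter. Over longer distances the balance was even. Of 162 regions with another DAR within 100 kb, 81 shared its direction (50.0%, 42.4 to 57.6), beside 48.0% (46.0 to 50.1) of all DARs. The nearest gene was also nearest to another DAR for 15.2% of the regions (12.1 to 18.9) and for 24.1% of all DARs.

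Gain regions had the smaller median width, 178 bp, beside 192 bp for loss regions and 186 bp for all DARs, with a mean of 194 ± 52.2 bp (SD over 240 regions) for gain and 204 ± 53.8 bp (188 regions) for loss. The smallest width in the tables, 150 bp, was found in 58 gain regions (24.2%, 19.2 to 30) and 30 loss regions (16.0%, 11.4 to 21.9), with intervals that overlap. Of the 88 regions of 150 bp, 65.9% were gain (55.5 to 75), and of the 340 wider ones 53.5% (48.2 to 58.8). The widest gain regions were those of Irag1 (440 bp, 7770 bp upstream), Bicra (382 bp) and the snoRNA gene Gm22792 (374 bp), and the widest loss regions those of the lncRNA genes Gm12589 (479 bp), Gm33524 (469 bp) and Gm47082 (357 bp).

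The regions were richer in G and C than their surroundings, as were DARs in general. The GC content was 49.1 ± 5.80% (SD over 428 regions), beside 42.9% in flanks of equal length that lay 1 kb away, and it was above that of the own flanks in 80.8% of the regions, beside 82.4% of all DARs, 82.3% of the intergenic DARs at 10 to 50 kb and 83.9% of those beyond 50 kb. It was 49.6 ± 5.75% in gain and 48.5 ± 5.82% in loss regions. All DARs had a mean of 50.7%, and a GC content above 55% was found in 14.3% of these regions (11.3 to 17.9) and in 22.8% of all DARs (21.8 to 24). In intergenic DARs at 10 to 50 kb the mean was 48.9% and the share above 55% was 13.1%, and beyond 50 kb they were 47.3% and 8.79%.

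**Figure D4:**
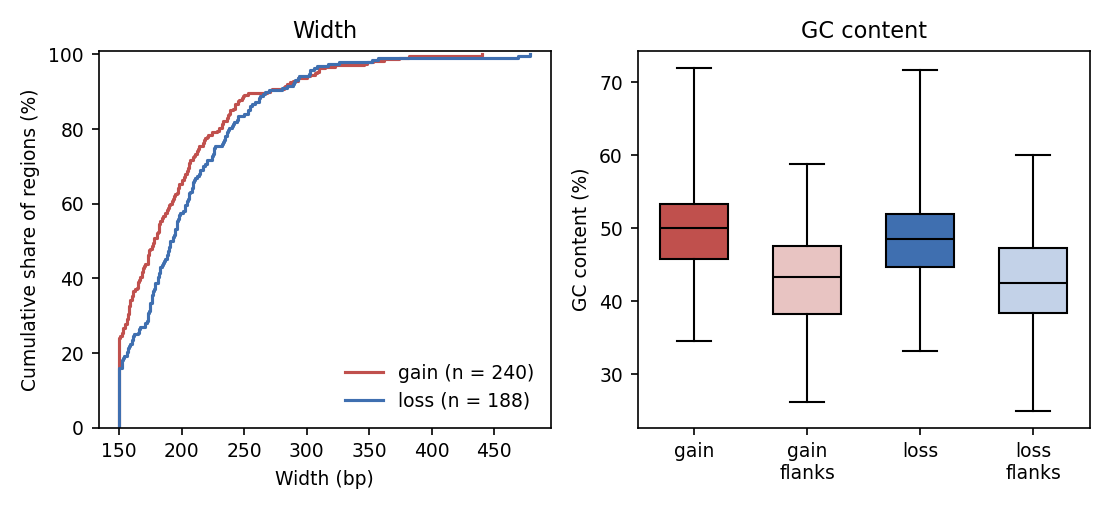
Left, cumulative share in % of gain (red, n = 240) and loss (blue, n = 188) regions by width in bp, where the gain curve starts higher at 150 bp. Right, GC content in % of the regions and of their flanks 1 kb away, with boxes from the first to the third quartile, a line at the median and whiskers to the extremes, where regions of both directions lie above their flanks.

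Letters of myeloid transcription factor motifs were searched on both strands of each region and of its flanks. The PU.1 letters GAGGAAGT occurred in 25 of the 428 regions (5.84%, 3.99 to 8.48) and in 1.64% of flanks, which is 3.57 times as often. In all DARs they occurred in 3.66% (3.20 to 4.19), which is 3.14 times the share in their flanks. They stood in 6.25% of gain and 5.32% of loss regions, with intervals that overlap. Regions with them included those of Socs3, Sirpa, Esr1, the estrogen receptor gene, and Osgin1 with gain, and those of Adam23 and Pgap4 with loss. The AP-1 letters TGANTCA occurred in 50 regions (11.7%, 8.97 to 15.1), in 4.79% of flanks and in 10.8% of all DARs (1.82 times their flanks), with 10.4% of gain and 13.3% of loss regions, among them Cxcl1, Mefv, Lfng and Hoxb13 with gain and Mib1, Ncoa6 and Mtus1 with loss. In flanks 2 kb away, the AP-1 share was 7.01%.

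The C/EBP letters TTGCNNAA occurred in 5% of gain (12 of 240, 2.88 to 8.53) and 11.2% of loss regions (21 of 188, 7.42 to 16.5), and these intervals overlap. In the flanks of gain and loss regions the shares were 6.67% and 9.84%. Over both directions, 7.71% of regions and 8.06% of flanks held these letters, beside 7.49% of all DARs and 8.79% of their flanks. Among the regions with them were those of Cxcl1 and Mmp12 with gain and those of Mcl1 and Ngfr, the nerve growth factor receptor gene, with loss. The NF-kB letters GGGANTTNC were found in 4.44% of regions (2.86 to 6.83) and 2.45% of flanks, beside 2.87% of all DARs, which lies at the lower end of this interval. In regions with a GC content up to 55%, these letters were found in 2.96% of gain and 3.05% of loss regions. Over all GC contents, the NF-kB letters stood in 12 gain (5%) and 7 loss regions (3.72%), among them Mefv, Nfam1, Dll4, Lfng and Epsti1 with gain and Wfikkn2, Zdhhc22, Micu2 and Plcl2 with loss. The composite of ETS and IRF letters (GGAANTGAA, which can overlap PU.1) was found in 3.74% of regions and 1.87% of flanks, beside 2.42% of all DARs.

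The forkhead, gamma-activated site, interferon response element and NFAT letters were rarer in the regions than beside them, as they were in all DARs. The forkhead letters TAAACA occurred in 9.11% of regions (9.58% of gain, 8.51% of loss) and 15.8% of flanks, beside 8.97% and 15.1% for all DARs, and with a leading G (GTAAACA, which is contained in the former) in 2.80% and 2.69%. The gamma-activated site TTCNNNGAA occurred in 3.27% of regions and 6.66% of flanks, the interferon response element GAAANNGAA in 5.37% and 7.13%, and the NFAT letters TGGAAA in 14.7% and 19.2%. In all DARs and their flanks, these shares were 4.64% and 6.88%, 4.71% and 7.35%, and 14.5% and 20.1%. These letters are rich in A and T, and the flanks are poorer in G and C, as given above, whose part in these shares was not tested. The RUNX letters TGTGGT were found in 17.3% of regions and 14.7% of flanks, and in 16.3% of all DARs.

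Of the letters common at CpG-rich promoters, the GC box was scarcer than in all DARs. This box, GGGCGG, was found in 3.97% of regions (2.49 to 6.27) and 2.45% of flanks, beside 9.35% of all DARs (8.61 to 10.1) and 3.01% of their flanks. The NRF1 letters CGCATGCG were found in 0 of 428 regions (upper Wilson limit 0.89%), beside 0.372% of all DARs. The CRE letters TGACGTCA and the ETS letters CCGGAAGT were in 1 region each, beside 0.425% and 0.92% of all DARs. The E-box CACGTG, which MITF and MYC bind, and the CTCF core AGGGGGC were in 2.57% of regions each, beside 3.56% and 4.35% of all DARs. For all of these but the GC box, the share of all DARs lay within the interval of the regions. A region held 0.956 ± 1.02 different motifs of the 17 on average (SD over 428 regions) and its flanks 0.923. The most motifs were found in the loss region of the pseudogene Gm7266 (5), followed by the gain regions of Mefv and Scd3, a stearoyl-CoA desaturase gene, and of an unnamed gene on chromosome 12, and the loss region of the lncRNA gene Gm40660 (4 each). The order of regions with 4 motifs was set by the rule for named genes, and other regions had 4 as well, among them Lfng and Gm33524.

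**Figure D5:**
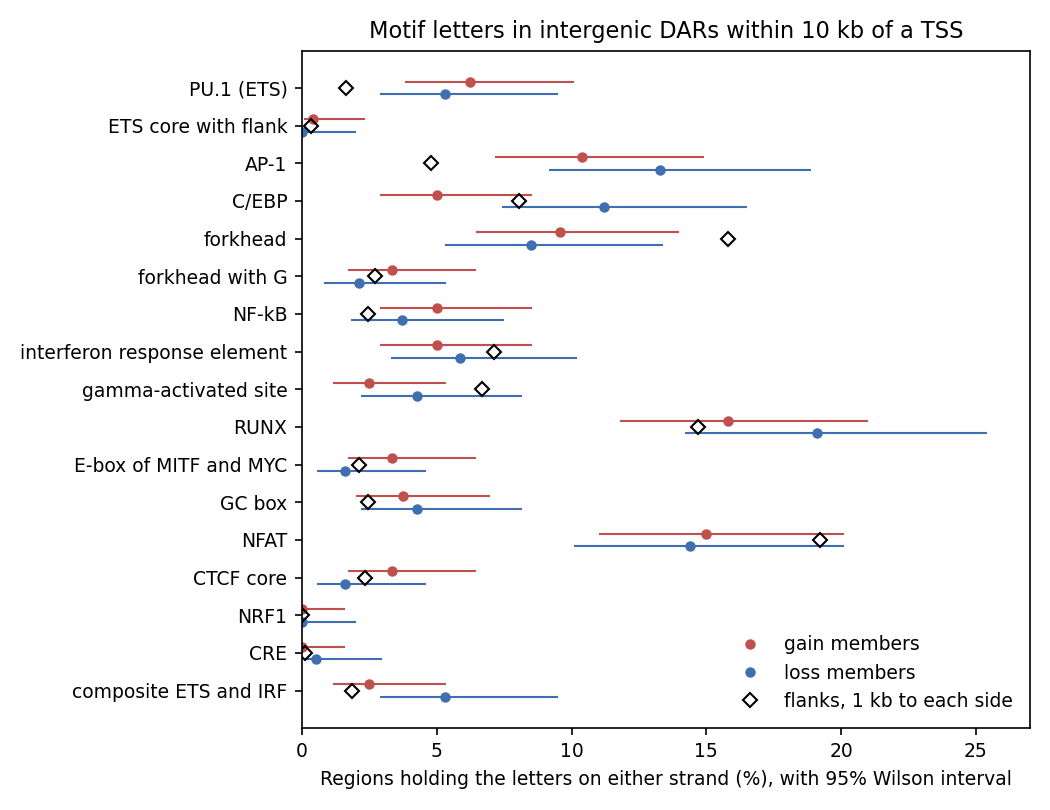
Share in % of gain (red, n = 240) and loss (blue, n = 188) regions that hold the letters of each of 17 motifs on either strand, with 95% Wilson intervals as lines, and the share in flanks of equal length 1 kb away (diamonds). PU.1 and AP-1 lie above their flanks in both directions, and the forkhead letters below. C/EBP stands at 5% in gain and 11.2% in loss regions, with intervals that overlap, beside 8.06% of flanks.

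Several gene families had more than 1 member among the nearest genes, and their counts are given with no test. Olfactory receptor genes (Or) were nearest to 10 regions, 4 gain and 6 loss, which is 10 of the 1378 Or genes in M39, and to 39 of all DARs. Vomeronasal receptors of the Vmn1r family, which like the former act in the nose, were nearest to 7 regions, 5 gain and 2 loss, out of 348 such genes, and to 20 of all DARs. Zinc finger genes named Zfp had 6 regions at 5 genes, 4 gain and 2 loss, beside 44 of all DARs. Immunoglobulin variable segments (Ighv and Igkv) had 6, 2 gain and 4 loss, beside 11 of all DARs. Ribosomal protein genes and pseudogenes (Rpl) had 5, 1 gain and 4 loss, beside 30 of all DARs at Rpl and Rps genes. The keratin-associated Krtap genes had 3 regions, all downstream, beside 5 of all DARs. Coiled-coil genes named Ccdc had 4 (1 gain, 3 loss), beside 20 of all DARs. MicroRNA genes had 4 regions, the pair at Mir34a, a loss region at Mir3962 and a gain region at Mir6420, beside 62 of all DARs. Genes known only by a Gm number, the default name of a predicted gene, took 194 of the 428 regions, 107 gain and 87 loss. Of all 5650 DARs they took 2270, 1254 gain and 1016 loss. Many of these families hold near-identical copies, and whether reads were placed on the right copy was not tested.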

How the data were processed

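According to the labels and methods, the authors trimmed ATAC-seq reads (cutadapt 1.9.1), aligned them to GRCm39 (Bowtie 2 2.2.6), removed duplicates (Picard 1.126), brought the libraries to like read numbers by sampling, called peaks with MACS on whole fragments and kept merged peaks that changed by 0.5 or more in either direction on the log2 scale as DARs. The deposited tables of DARs hold positions, widths and distances in bp, with the other columns being gene annotation. Gain and loss are the authors' names, read after the methods as changes after inhibition, since no signal column shows the direction. The authors' signed distance runs from the nearest edge of a DAR to the TSS of the listed transcript, as was checked in 5650 of 5650 rows. No columns of other series were found.

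The regions were selected by class and distance, and sequences were read from GRCm39 at these 1-based positions. Gene types, overlaps and starts of protein-coding transcripts came from GENCODE M39, which holds the listed genes of 419 of 428 regions. Flanks had the same length, 1 kb to each side. Python 3.11.15, pandas 2.3.3, scipy 1.17.1 and pysam 0.24.0 were used. Shares carry 95% Wilson intervals. The motif search was tested on simulated sequences. With 1 library per group no test was made. Regions, lists, motifs and limits were chosen with earlier results of these data known. Named were genes of the lists, genes with several regions, the widest regions, those at the limits, those with the most motifs and gene families, and for others the text says so. Alternatives of distance, width, annotation, window and flank were computed. Some regions under these rules are not reported here.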

Additional observations from a re-analysis of the deposited data

How the results depend on the processing

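Over the other settings tried for the main shares, widths and counts, 6 values moved beyond the interval of the reported share or beyond 1.5 times its count. Widths, GC contents and motif numbers were held against the SD of single regions, which says little of stability. The gain share of all 428 regions was between 53.5% (wider than 150 bp) and 58.8% (protein-coding starts of M39 within 10000 bp). With the latter, the side of each region was taken anew from the protein-coding start of M39. The upstream gain share then moved to 60.2% (128 regions), and the downstream share was 54.1% (37 regions), within its reported interval. Their order thus reversed, over other sets of upstream and downstream regions, and the cause was not tested. The upstream share moved from 63.1% to 70.9% with a limit of 5000 bp and to 57.1% with the regions 1 to 3000 bp downstream included, which adds downstream regions by construction. The protein-coding share of nearest genes fell from 39% to 28.3% with the nearest gene of any type in M39. The share outside genes rose from 68.5% to 96.7% when only protein-coding genes counted. With 5000 bp, 4 list genes in place of 12 were left, over 127 regions. Among motifs, GC box letters fell to 1.97% of gain regions with a GC content up to 55%. No regions of 1 direction lay within 1 kb of each other or off the autosomes, so that these settings left all regions in and could not move a value. No replicate could be left out, since each group is 1 library. No paired analysis was possible because each group has 1 library and the result comes from no test. Depth and fold change of each DAR are not columns of these tables, which limits any ranking by strength.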
